A study of Mus musculus with 20 samples.

Results

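The AP-1 and ATF transcription factors described here are 10 genes chosen by symbol: Fos, Fosb, Fosl1 and Fosl2 of the Fos family, Jun, Junb and Jund of the Jun family, and Atf3, Batf and Batf3. All 10 were found among the 24421 genes of the count table. After a filter on low counts 12465 genes were tested, 9 of the 10 among them, and Fosl1 was left out with 0 to 8 reads per library. The libraries are bulk RNA-seq of bone marrow-derived dendritic cells (BMDCs), grown from marrow of wild-type C57BL/6 mice for 8 days in medium with GM-CSF at 40 ng/mL, a cytokine that drives myeloid precursors towards dendritic cells and macrophages. Cultures of 5 mice, A to E, each gave 4 libraries. Cells received either DMSO, the solvent control, or iBET (I-BET151, which blocks the acetyl-lysine pockets of the BET proteins) at 3.3 µM, together with ovalbumin (Ova) or with insoluble immune complexes (IC) of ovalbumin and rabbit anti-ovalbumin antibody, for 4 hours. The groups are called DMSO Ova and DMSO IC for the controls and iBET Ova and iBET IC for the treated cells, each with 5 libraries, and the libraries of different mice are separate cultures. The labels state that drug and stimulus were given together and the methods that the drug came first. The labels state 5% DMSO for the control groups, and whether the iBET groups held the same amount of solvent is not given in the sources used here. The labels describe cells sorted into lysis buffer and the methods cultures lysed directly. The ages of the mice that gave the marrow are not given in the sources used here, nor is there a group without Ova or IC.

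AP-1 is a family of dimers of basic leucine zipper (bZIP) proteins. Fos proteins cannot pair with each other and bind DNA as partners of Jun proteins, whereas Jun proteins also pair among themselves and with ATF proteins. The dimers bind the TPA response element or the related cyclic AMP response element. Fos, Fosb, Jun, Junb and Atf3 are immediate early or stress-induced genes, which are transcribed within minutes of a signal through kinases already in the cell. Batf and Batf3 carry little more than the zipper and bind with Jun proteins and with IRF4 or IRF8, and Batf3 is known for its need in the development of cross-presenting conventional dendritic cells. BET proteins bind acetylated histones and recruit the factor that releases paused RNA polymerase II, a step by which many immediate early genes are controlled.

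The promoters of 5 members are shown. Of these Atf3 and Batf fell with iBET, Jun rose with iBET and Ova, and Fos and Fosb differed mainly between mice. Batf3, which also fell with iBET, and Jund, which also rose, are not printed, and their windows held no match to the motifs searched. The sequences are RefSeq windows on GRCm38.p6, of which up to 250 bases before the annotated start are printed, 5′ to 3′ on the strand of the gene, and bases inside any GENCODE exon were left out. Capitals mark matches to the motifs searched on both strands, which were the TPA response element TGACTCA, the cyclic AMP response element TGACGTCA, its variant TGACATCA, the part-site TGACG (contained in TGACGTCA), the TATA box TATAAA, the CArG box and the MEF2 motif.
Fos, chr12:85473640-85473889, + strand: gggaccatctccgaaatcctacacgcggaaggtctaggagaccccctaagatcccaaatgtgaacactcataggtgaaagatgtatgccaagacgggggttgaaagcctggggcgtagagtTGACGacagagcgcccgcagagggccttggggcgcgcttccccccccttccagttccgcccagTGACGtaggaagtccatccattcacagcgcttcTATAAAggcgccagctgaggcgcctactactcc
Fosb, chr7:19310052-19310295, - strand: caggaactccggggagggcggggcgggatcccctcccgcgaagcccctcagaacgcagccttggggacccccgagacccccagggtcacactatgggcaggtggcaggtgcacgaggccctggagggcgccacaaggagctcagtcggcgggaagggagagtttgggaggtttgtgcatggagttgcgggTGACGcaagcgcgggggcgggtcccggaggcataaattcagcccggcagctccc
Jun, chr4:95052223-95052472, - strand: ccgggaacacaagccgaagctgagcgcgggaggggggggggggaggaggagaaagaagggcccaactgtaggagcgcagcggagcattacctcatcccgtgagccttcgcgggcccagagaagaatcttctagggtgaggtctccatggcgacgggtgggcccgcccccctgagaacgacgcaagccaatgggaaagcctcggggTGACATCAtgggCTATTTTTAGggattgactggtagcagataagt
Atf3, chr1:191183341-191183583, - strand: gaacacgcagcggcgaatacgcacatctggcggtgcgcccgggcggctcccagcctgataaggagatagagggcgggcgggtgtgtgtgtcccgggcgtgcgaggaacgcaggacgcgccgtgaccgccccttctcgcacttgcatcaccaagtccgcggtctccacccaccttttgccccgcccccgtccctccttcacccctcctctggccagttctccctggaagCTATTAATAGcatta
Batf, chr12:85686470-85686668, + strand: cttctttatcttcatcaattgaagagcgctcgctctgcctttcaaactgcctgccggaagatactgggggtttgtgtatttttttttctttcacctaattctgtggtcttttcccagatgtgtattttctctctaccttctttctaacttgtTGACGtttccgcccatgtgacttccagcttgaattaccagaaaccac
A window was found for 9 of the 10 members, Fosl1 being the exception. TGACG was present in the windows of Fos, Fosb, Junb, Atf3 and Batf, 5 of 9, and in 17.8% of all 32851 windows. Relative to the start it began at positions -129 and -66 in Fos, -60 in Fosb and -98 in Batf, and in Atf3 the match on the opposite strand lay in bases that are exonic in GENCODE and are not printed. The RefSeq starts used for Atf3 and Batf3 lie inside the GENCODE genes, so these windows are not those of their farthest starts. The Jund window ends at base 70697738, before the GENCODE start at 70698949, and the Fosl2 window lies wholly within its exons. The counts of matches include these windows. TGACATCA was found in the Jun window alone, at position -45, against 2.93% of all windows, and TATAAA in the Fos window alone, against 12.4%. The MEF2 motif was found in Jun and Atf3, against 2.92% of all windows. TGACTCA, TGACGTCA and the CArG box, which 4.46%, 1.55% and 1.47% of all windows held, were in none of the 9. A match is a description of these letters only, and binding was not measured.

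Total counts per library ranged from 16447491 to 29245150. Dendritic cell genes were present throughout: Itgax had group means of 1961 to 2285 CPM (reads scaled to the library total) and Cd74 of 2660 to 3808 CPM, while Flt3 was at 3.03 CPM with DMSO Ova and 0.242 CPM with iBET Ova, and Cd209a at or below 0.281 CPM. Genes common in macrophages were expressed too, with Csf1r at 582.1 to 1032 CPM, so the cultures are not described by dendritic cell markers alone. The 7 lymphocyte markers summed to 0.5445 CPM or less in every library. In bulk RNA, fewer cells of a type and less RNA per cell cannot be told apart. CPM here are scaled with TMM, a method that sets aside the genes that differ most between libraries. With library size alone the median gene shifted to -0.13 (log2) between IC and Ova with DMSO and to -0.12 with iBET, from -0.02 and -0.01 with TMM, and the split of calls moved from 1196 higher and 1335 lower to 584 and 2593 with DMSO, and from 647 and 827 to 313 and 2028 with iBET.

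With iBET, 5 of the 9 tested members passed the threshold (adjusted p under 0.05, quasi-likelihood test of edgeR over all genes) in cells given Ova, where 56.6% of all genes did so. Jun and Jund rose (27.7% of all genes rose) and Atf3, Batf and Batf3 fell (28.9% fell). In cells given IC, 5 of 9 passed, against 56.1% of all genes: Fosl2 and Jund rose (27.1% of all genes) and the same 3 genes, Atf3, Batf and Batf3, fell (29.0%). The share of members called was thus near that of all genes. IC against Ova changed 3 of 9 with DMSO, against 20.3% of all genes. Atf3 and Jun rose (9.59% of all genes) and Fosl2 fell (10.7%). With iBET present, 1 of 9 changed, against 11.8% of all genes: Atf3 rose (5.19% of all genes rose and 6.63% fell). The median log2 change of the 9 members was 0.11 and 0.26 for iBET with Ova and with IC, and 0.13 and 0.07 for IC with DMSO and with iBET, beside -0.003, -0.005, -0.02 and -0.01 over all genes tested. The contrasts within a stimulus or a drug arm share libraries, so the values are given side by side and no likeness between them is drawn.

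The mouse was known for each library, and libraries of a mouse deviated together. With the mouse as a block in the fit, which sets each library against the others of its mouse, 7 and 8 members passed for iBET with Ova and with IC (68.7% and 68.0% of all genes), and 4 and 4 for IC with DMSO and with iBET (38.1% and 28.9% of all genes). Fos and Fosb were added for iBET in both arms, Jun for iBET with IC and for IC with iBET, Fos for IC in both arms, and Batf3 for IC with iBET. No member lost its call under the block.

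**Figure D1:**
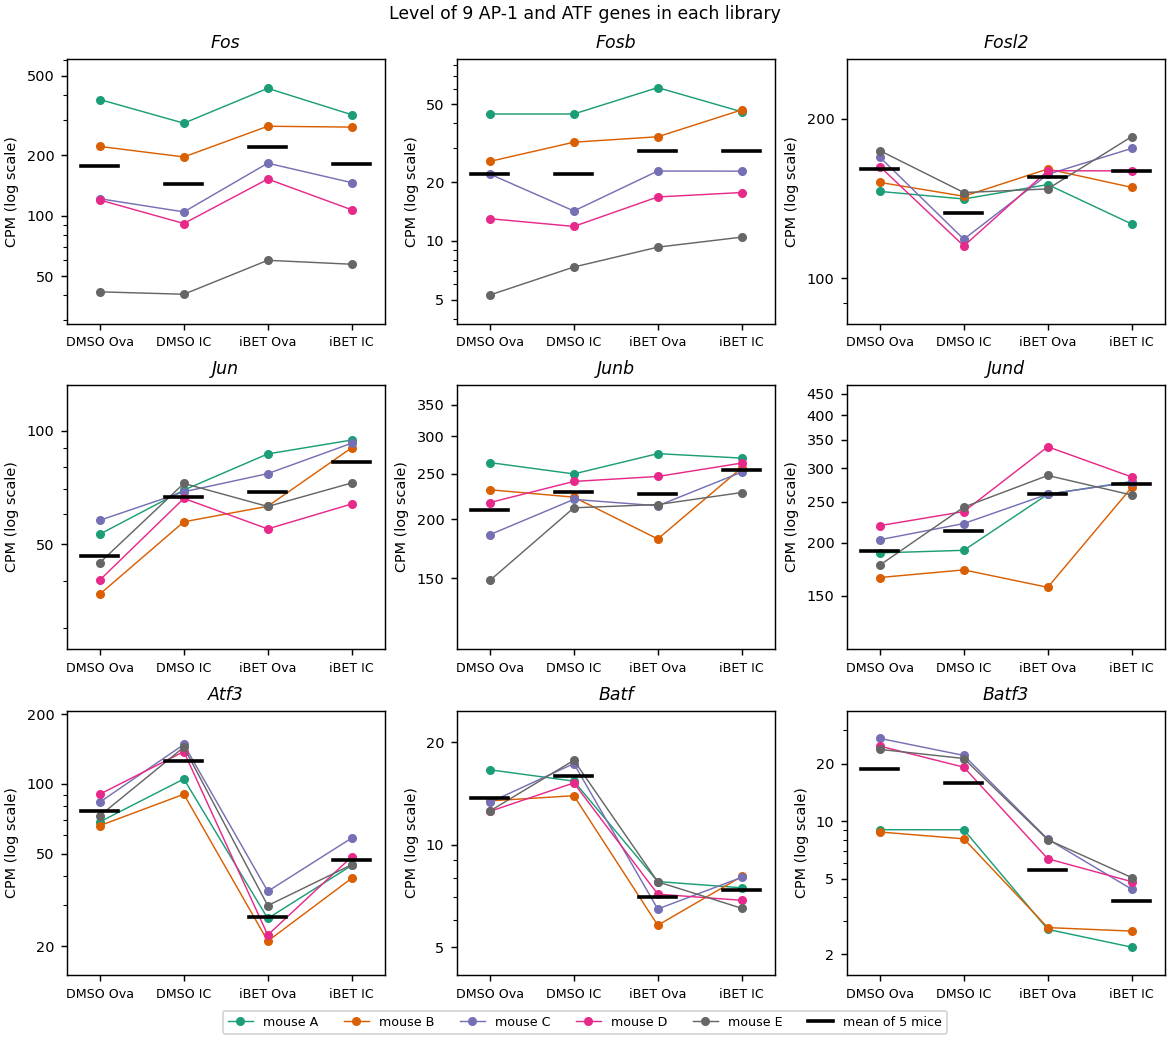
CPM on a log scale (y) of the 9 tested genes in the 4 groups (x), each point 1 library, lines joining the libraries of a mouse and black bars giving the mean of 5 mice. Atf3, Batf and Batf3 drop in both iBET groups, whereas Fos and Fosb keep mouse A highest and mouse E lowest in nearly every group.

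Atf3, a stress-induced ATF protein known to restrain inflammatory genes in myeloid cells, fell with iBET under both stimuli and rose with IC in both drug arms. Its level in mice A to E was 68.7, 66.1, 83.5, 90.4 and 73 CPM with DMSO Ova and 105, 90.3, 148, 138 and 144 CPM with DMSO IC. Under iBET the 5 mice gave 26.3, 21, 34.5, 22.3 and 29.9 CPM with Ova and 44.5, 39.2, 58.5, 48.5 and 44.9 CPM with IC. All 5 iBET libraries lay below all 5 DMSO libraries of the same stimulus, and the iBET IC libraries, at most 58.5 CPM, also lay below every DMSO Ova library, of which the lowest was 66.1 CPM. iBET lowered Atf3 2.85-fold with Ova (log2 -1.51, SE 0.155, adjusted p = 8.48e-08) and 2.65-fold with IC (log2 -1.41, SE 0.153, adjusted p = 1.79e-07), and all 5 mice went down each time. IC raised it 1.64-fold with DMSO (log2 0.71, SE 0.15, adjusted p = 0.00252) and 1.76-fold with iBET (log2 0.81, SE 0.154, adjusted p = 0.00178), higher in 5 of 5 mice in both. The DMSO IC and DMSO Ova ranges touched only through mouse B with IC, at 90.29 CPM, and mouse D with Ova, at 90.39 CPM, and with iBET the groups did not overlap. The interaction, the log2 change under IC minus that under Ova, was 0.10 (95% interval -0.34 to 0.55, adjusted p = 1). In mice A and B alone the rise with IC and DMSO had an adjusted p of 0.0524, and in mice C, D and E alone of 0.000772.

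Batf fell with iBET and its response to IC did not pass the test. In mice A to E it stood at 16.6, 13.4, 13.3, 12.5 and 12.6 CPM with DMSO Ova and 15.4, 13.9, 17.3, 15.2 and 17.7 CPM with DMSO IC. With iBET it stood at 7.79, 5.8, 6.47, 7.16 and 7.78 CPM with Ova and 7.47, 8.06, 8.02, 6.87 and 6.5 CPM with IC. Every iBET library was below every DMSO library, and within each group the mice lay close together, with mouse A in DMSO Ova the one set apart on the high side. The fall was 1.95-fold with Ova (log2 -0.96, SE 0.103, adjusted p = 1.47e-07) and 2.15-fold with IC (log2 -1.10, SE 0.102, adjusted p = 2.03e-08). IC against Ova gave 0.21 with DMSO (95% interval 0.01 to 0.42, adjusted p = 0.138) and 0.07 with iBET (95% interval -0.14 to 0.29, adjusted p = 0.718). In mice C, D and E alone the former was 0.40 and passed (adjusted p = 0.0106), and in mice A and B alone it was -0.06.

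Batf3 had the largest fold fall of the 9 members with iBET and stood at different levels in the mice. In mice A to E it was 9.02, 8.77, 27.2, 24.8 and 23.8 CPM with DMSO Ova and 9.01, 8.08, 22.1, 19.2 and 21.3 CPM with DMSO IC. In the iBET groups it was 2.71, 2.76, 8.05, 6.35 and 7.99 CPM with Ova and 2.18, 2.65, 4.4, 4.82 and 5.06 CPM with IC. Mice A and B were below mice C, D and E in all 4 groups, and the iBET groups lay below the DMSO groups even so, their highest library being 8.05 CPM against a lowest DMSO library of 8.08 CPM. iBET lowered Batf3 3.37-fold with Ova (log2 -1.75, SE 0.406, adjusted p = 0.00106) and 4.24-fold with IC (log2 -2.08, SE 0.418, adjusted p = 0.000281). In mice A and B alone the fold changes were -1.71 and -1.80 (log2), and in mice C, D and E alone -1.72 and -2.11. IC against Ova with iBET was -0.56 (95% interval -1.46 to 0.33, adjusted p = 0.451) although each mouse had less, and with the mouse as a block the same contrast passed, at -0.49 (SE 0.109, adjusted p = 0.00259). With DMSO it was -0.23 (95% interval -1.03 to 0.57, adjusted p = 0.731).

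Several marker lists differed between the same mice as Batf3. The 9 dendritic cell markers summed to a mean of 5595 and 5091 CPM in mice A and B and to 6990, 8363 and 7065 CPM in mice C, D and E. Single markers differed: Ccr7, the receptor that guides dendritic cells to lymph nodes, averaged 189 CPM in mouse A and 622 CPM in mouse C, and Zbtb46, a factor of conventional dendritic cells, 15.1 and 32.2 CPM, while Itgax was higher in mice A and B, at 2508 and 2224 CPM, than in mice C, D and E, at 1807, 2106 and 1872 CPM. The mast cell and basophil markers summed to 15.8 and 14.3 CPM in mice A and B and to 38.6, 31.5 and 35.9 CPM in mice C, D and E, and the erythroid markers to 1.99 and 1.66 CPM and to 11.3, 8.62 and 12.7 CPM. The sum of the 8 macrophage markers went the other way, though Adgre1 and C1qa were highest in mouse C, with sums of 1719 and 1627 CPM in mice A and B and of 1293, 1336 and 1197 CPM in mice C, D and E. With iBET the dendritic cell sum ranged from 4764 to 7628 CPM (Ova) and 5712 to 9632 CPM (IC). With DMSO it ranged from 4568 to 7420 and from 5323 to 8774 CPM. Cd74 and Itgax make up most of this sum. From DMSO Ova to iBET Ova, Cd74 went from a mean of 2660 to 3168 CPM and Itgax from 1961 to 2107 CPM. Ciita went from 43.8 to 1.36 CPM, Flt3 from 3.03 to 0.242 CPM and Ccr7 from 461 to 331 CPM. Of the 8 tested markers 2 fell and none rose in each arm. Of all genes 28.9% fell and 27.7% rose with Ova, and 29.0% fell and 27.1% rose with IC. With the mouse as a block 5 fell in each arm, and 1 (Ova) and 2 (IC) rose. Of 12465 genes the block had 4385 (Ova) and 4408 (IC) falling and 4175 and 4065 rising. The macrophage sum was 919 to 1308 CPM (Ova) and 965 to 1533 CPM (IC) with iBET, against 1372 to 2031 and 1532 to 2090 CPM with DMSO. The part of these cells or of the other cell types in the levels of Batf3 was not tested.

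Jun, the founding partner of the AP-1 dimer, rose with either treatment taken alone. Both rises are set against the same DMSO Ova libraries, so they are not separate observations. In mice A to E its level was 53.2, 36.9, 57.9, 40.2 and 44.7 CPM with DMSO Ova and 69.6, 57.4, 68.9, 66.1 and 72.5 CPM with DMSO IC. The iBET libraries were at 86.7, 63, 76.9, 54.9 and 63 CPM with Ova and 94.4, 90.04, 92.6, 63.9 and 72.7 CPM with IC. The mean was lowest in DMSO Ova and highest in iBET IC, but groups overlapped, mouse D with iBET Ova lying below mouse C with DMSO Ova. The rise was 1.48-fold with iBET and Ova (log2 0.56, SE 0.139, adjusted p = 0.00182) and 1.44-fold with IC and DMSO (log2 0.52, SE 0.139, adjusted p = 0.0124), each in 5 of 5 mice. Without mouse E the latter no longer passed (log2 0.48, adjusted p = 0.0701). iBET with IC gave 0.31 (95% interval 0.02 to 0.60, adjusted p = 0.0654) and IC with iBET gave 0.26 (95% interval -0.02 to 0.55, adjusted p = 0.236). With the mouse as a block both passed, at 0.29 (adjusted p = 0.00784) and 0.27 (adjusted p = 0.0312). The difference between the arms was -0.26 (95% interval -0.67 to 0.15, adjusted p = 1).

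Jund, the constitutively expressed Jun protein, rose with iBET in both arms. In mice A to E it was 189.5, 166, 204, 219.8 and 177 CPM with DMSO Ova and 192, 173, 222, 237 and 243 CPM with DMSO IC. After iBET it was 261, 157, 261, 337 and 289 CPM with Ova and 279, 270.5, 279, 286 and 259.5 CPM with IC. With Ova, mouse B went against the others and was lower with iBET, and with IC all 5 iBET libraries were above all DMSO libraries. The rise was 1.36-fold with Ova (log2 0.45, SE 0.142, adjusted p = 0.011, 4 of 5 mice) and 1.29-fold with IC (log2 0.36, SE 0.142, adjusted p = 0.0347, 5 of 5 mice). The call with Ova was lost without mouse E (adjusted p = 0.0709) and in mice A and B alone (log2 0.23, adjusted p = 0.369, against 0.61 in mice C, D and E), and the call with IC without mouse A (adjusted p = 0.13), without mouse C (adjusted p = 0.0764) and with library size in place of TMM (adjusted p = 0.073). IC against Ova was 0.16 with DMSO (95% interval -0.14 to 0.46) and 0.07 with iBET (95% interval -0.22 to 0.37), neither past the threshold.

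Junb, often a counterweight to Jun in its choice of targets, passed no test over the 5 mice. Its level was 209 ± 44.1 CPM with DMSO Ova (SD, n = 5), 229 ± 15.6 CPM with DMSO IC, 226 ± 35.8 CPM with iBET Ova and 254 ± 16 CPM with iBET IC. The log2 changes lay between 0.11 and 0.17 in the 4 contrasts, and their 95% intervals ran from -0.14 at the lowest to 0.42 at the highest. For iBET with Ova it was -0.12 in mice A and B alone and 0.34 in mice C, D and E alone, where it passed (adjusted p = 0.0213). The Junb gene overlaps Prdx2 on the opposite strand, and the strand setting of the counting is not given in the sources used here.

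Fosl2, a Fos protein with slower and longer induction than Fos, had its lowest mean in the DMSO IC group. Its mean was 132.5 CPM there, against 160.6 CPM with DMSO Ova, 154.9 CPM with iBET Ova and 159.0 CPM with iBET IC. In mice A to E it was 146, 152, 169, 162 and 174 CPM with DMSO Ova and 141, 143, 118, 115 and 145 CPM with DMSO IC. In iBET-treated cells it was 150.2, 161, 157, 159.5 and 147 CPM with Ova and 127, 148, 176, 159 and 185 CPM with IC. With DMSO every IC library lay below every Ova library, and with iBET the Ova and IC libraries overlapped. IC lowered Fosl2 1.21-fold with DMSO (log2 -0.28, SE 0.0908, adjusted p = 0.0368), and iBET raised it 1.2-fold with IC (log2 0.26, SE 0.0908, adjusted p = 0.0191, 4 of 5 mice). Both contrasts use the same DMSO IC libraries, so the fall and the rise are not separate observations. Both calls were easily lost: the first without mouse B, C, D or E (adjusted p from 0.0584 to 0.19) and with no filter on low counts (adjusted p = 0.0585), the second without mouse C, D or E (adjusted p from 0.0527 to 0.114) and with library size in place of TMM (adjusted p = 0.063). In mice A and B alone these changes were -0.08 and -0.03, and in mice C, D and E -0.40 and 0.48. iBET with Ova gave -0.05 (95% interval -0.24 to 0.14), IC with iBET gave 0.04 (95% interval -0.15 to 0.23), and the difference between the arms was 0.31 (95% interval 0.05 to 0.58, adjusted p = 1).

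The 5 CPM values of a group did not overlap with those of its comparison group for Atf3, Batf and Batf3 with iBET and Ova (38.0% of all genes), for these and Jund with iBET and IC (42.8% of all genes), for Fosl2 with IC and DMSO (12.4% of all genes) and for Atf3 with IC and iBET (10.0% of all genes). No member passed the interaction, and all 9 had an adjusted p of 1. Over all genes 5 passed it, which is 0.0401%, and 542 had an unadjusted p under 0.05. With the block 102 genes passed (0.818%), again with no member among them, and the Wald test of DESeq2 called 25 genes without and 184 with the block, also with none of the 9.

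**Figure D2:**
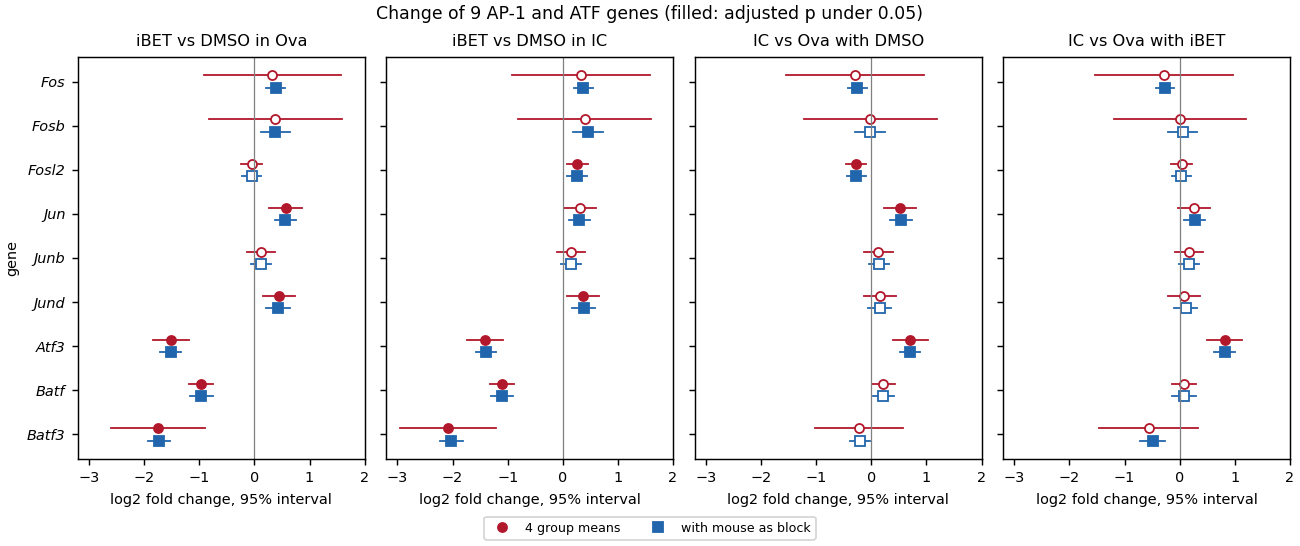
Log2 fold change with its 95% interval (x) of the 9 tested genes (y) in the 4 contrasts, for the fit of 4 group means (circles) and the fit with the mouse as a block (squares), filled where the adjusted p is under 0.05. The intervals of Fos, Fosb and Batf3 narrow under the block, while the estimates change little.

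Fos and Fosb, the rapidly induced Fos proteins, differed more between mice than between treatments. Fos in mice A to E was 380.3, 222, 122, 119.8 and 41.7 CPM with DMSO Ova and 289.8, 197, 104, 91.5 and 40.5 CPM with DMSO IC. Its iBET levels were 433, 279.8, 183, 152 and 59.9 CPM with Ova and 319.6, 277, 146, 107 and 57.3 CPM with IC. The order A, B, C, D, E was the same in all 4 groups, and the mean of mouse A over its 4 libraries was 7.13-fold that of mouse E. These levels rest on 813 to 10714 reads per library, so counting error is small beside the differences. Of the variation of Fos in log2 CPM over the 20 libraries, 93.5% lay between mice and 5.26% between groups, against medians of 17.5% and 62.1% over all genes, and Fos ranked at place 26 of 12465 genes by the share between mice.

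Within each mouse Fos shifted by smaller steps. In all 5 mice it was higher with iBET than with DMSO under either stimulus and lower with IC than with Ova under either drug arm. Without the mouse in the fit iBET gave 0.32 with Ova (95% interval -0.92 to 1.57, adjusted p = 0.665) and 0.33 with IC (95% interval -0.92 to 1.58, adjusted p = 0.659), neither past the threshold. With the mouse as a block Fos rose with iBET by 0.39 (SE 0.0805, adjusted p = 0.00032) with Ova and by 0.37 (SE 0.0809, adjusted p = 0.000488) with IC. It fell by 0.25 on the log2 scale with IC and DMSO (SE 0.0808, adjusted p = 0.0195) and by 0.27 with IC and iBET (SE 0.0806, adjusted p = 0.0184).

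Fosb followed the same order of mice at lower levels. It was 44.7, 25.5, 22, 13 and 5.28 CPM with DMSO Ova and 44.7, 32, 14.2, 11.9 and 7.35 CPM with DMSO IC. With iBET it was 61, 34.1, 22.8, 16.8 and 9.29 CPM with Ova and 45.9, 46.9, 22.8, 17.7 and 10.4 CPM with IC. Mouse E was lowest in every group and mouse A highest in 3 of them, mouse B standing just above it with iBET IC. The share of variation between mice was 91.1%, place 63 of 12465. Each mouse had more Fosb with iBET than with DMSO, with either stimulus, by 0.38 (95% interval -0.82 to 1.59, adjusted p = 0.594) and 0.40 (95% interval -0.81 to 1.60, adjusted p = 0.579), and with the block it rose by 0.38 (SE 0.126, adjusted p = 0.012) and 0.46 (SE 0.126, adjusted p = 0.00361). IC against Ova was -0.01 with DMSO (95% interval -1.22 to 1.20) and 0.00 with iBET (95% interval -1.19 to 1.20).

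Across the 20 libraries, which share mice and groups, the log2 CPM of Fos and Fosb had a Pearson r of 0.971. Fos and Junb had 0.545, Fos and Jun 0.212, Fos and Fosl2 -0.201 and Fos and Batf3 -0.59. Junb, with 43.8% of its variation between mice, was also highest in mouse A and lowest in mouse E on average, at 264.7 and 200.7 CPM. Mouse A was highest and mouse E lowest for 864 of 12465 genes (6.93%), 3 of 9 members and 4 of 24 other immediate early genes. Those 4 were chosen for naming after their values were seen. They were Dusp1, a phosphatase of MAP kinases, with means of 118.9, 76.3, 77.9, 62.6 and 58.6 CPM in mice A to E, Nr4a1, an orphan nuclear receptor, with 2.61, 2.30, 0.943, 1.06 and 0.802 CPM, and Btg2 and Zfp36, with 92.4 and 224 CPM in mouse A and 69.98 and 166.6 CPM in mouse E. The macrophage markers summed to 1719, 1627, 1293, 1336 and 1197 CPM in mice A to E. The neutrophil markers summed to 14.9, 15.9, 26.9, 21.2 and 44.1 CPM. Neither sum moved steadily from mouse A to mouse E. Total counts were 19581528 to 29245150 in mouse A and 18059143 to 25423871 in mouse E. The part of cell makeup or of handling in the order of the mice was not tested, and the labels name no batch.

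**Figure D3:**
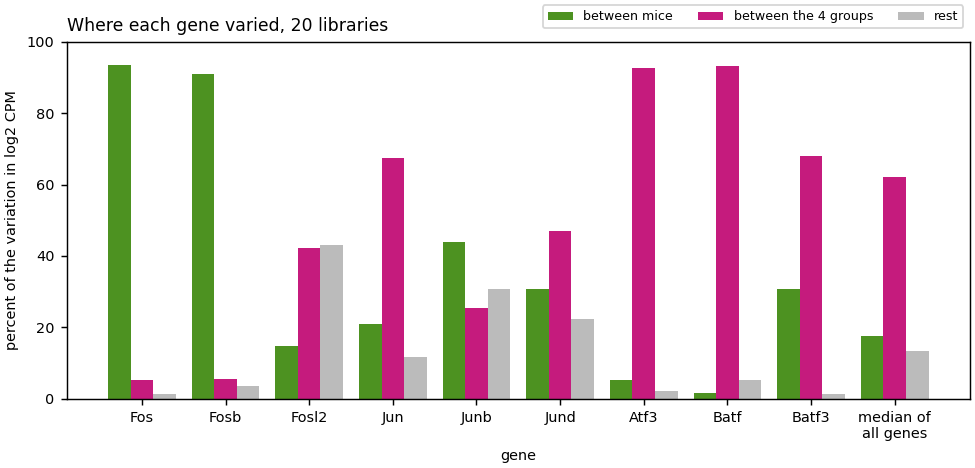
Percent of the sum of squares of log2 CPM over 20 libraries (y) that lies between the 5 mice, between the 4 groups and in the rest, for the 9 tested genes and as the median of all genes tested (x). Fos and Fosb have over 91% between mice, and Atf3 and Batf over 92% between groups.

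Atf3 and Batf were the reverse case, with 92.7% and 93.2% of their variation between groups and 5.26% and 1.55% between mice. Batf3 had 68.1% between groups and 30.6% between mice, and Jund 47.1% and 30.6%. Jun had 67.3% between groups. Fosl2 had the largest remainder of the 9, 43.0%, which neither the group nor the mouse took up. Atf3 and Batf had a Pearson r of 0.89 over the 20 libraries, Atf3 and Batf3 0.741, and Batf and Batf3 0.75.

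Compared per transcript length, in RPKM made from the CPM and the GENCODE exon length, Jund was the most abundant member in all 4 groups by mean. It averaged 115 ± 12.8 RPKM with DMSO Ova (SD, n = 5), Junb 90.9 ± 19.2, Fos 75.3 ± 55.4, Atf3 35.5 ± 4.77, Fosl2 16.6 ± 1.22, Jun 14.6 ± 2.76, Batf3 11.7 ± 5.66, Batf 9.74 ± 1.2 and Fosb 3.54 ± 2.39 RPKM. Of the neighbours in this order, Atf3 and Fosl2, and Batf and Fosb, did not overlap, and the others did. Fosl1 stood at 0.0525 ± 0.0462 RPKM. In the DMSO IC group Atf3, at 58 ± 12 RPKM, stood next to Fos, at 61.5 ± 42 RPKM, and was higher than it in 3 of 5 mice. With iBET Ova Atf3 dropped to 12.4 ± 2.56 RPKM, below Fosl2 at 16 ± 0.606 RPKM in 5 of 5 mice, and Jun, at 21.6 ± 3.99 RPKM, was above Fosl2 in 5 of 5. With iBET IC Jund and Junb, at 165 ± 6.14 and 110.4 ± 6.97 RPKM, no longer overlapped. These orders rest on annotated exons and not on the isoforms in use.

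The make-up of the Fos family per length followed the mouse. Fos made up 87.9% of the summed RPKM of the 4 Fos genes in mouse A and 48.3% in mouse E with DMSO Ova, and 86.9% and 53.8% with iBET IC. Fosl2 made up 8.19% in mouse A and 49.0% in mouse E with DMSO Ova, and Fosb stayed between 2.31% and 5.33% in all libraries. Fosl1 never exceeded 0.362%. In the Jun family Jund made up 52.3% ± 5.18 (SD, n = 5) with DMSO Ova and 54.8% ± 1.31 with iBET IC, Junb 41.0% ± 5.83 and 36.6% ± 0.811, and Jun 6.68% ± 1.29 and 8.61% ± 1.26. Within a mouse, the share of Jund was higher with iBET than with DMSO in 5 of 5 mice under either stimulus, and that of Junb was lower in 5 of 5 mice under Ova and in 4 of 5 under IC.

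**Figure D4:**
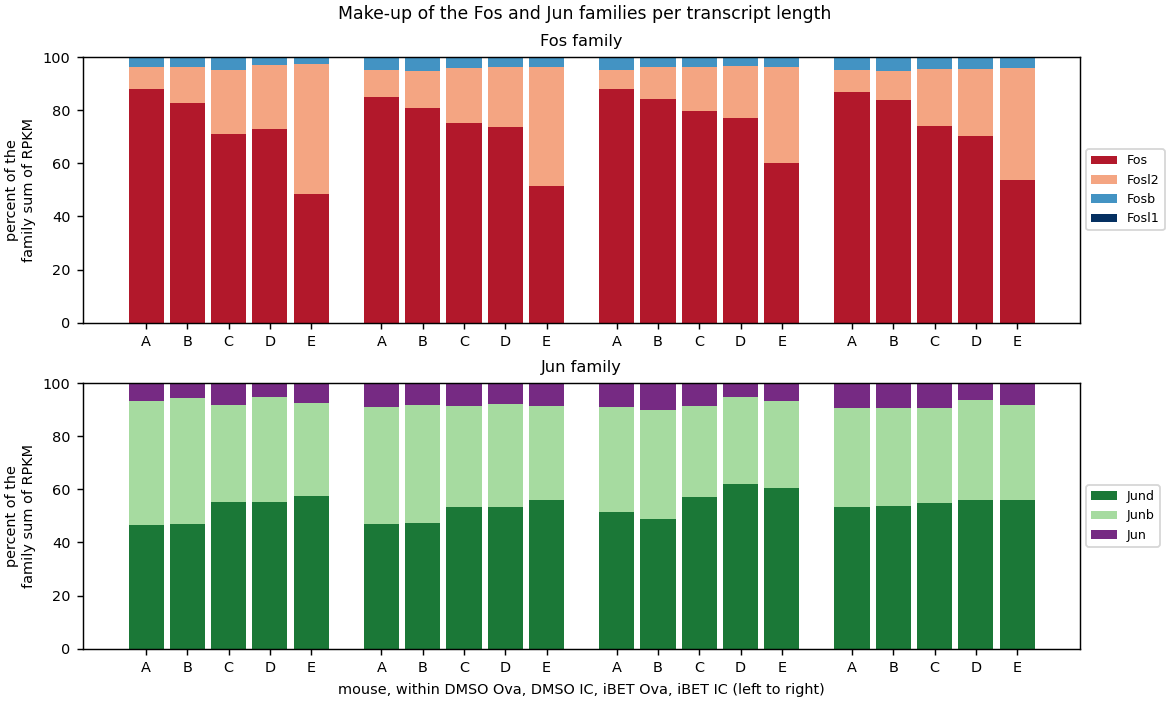
Percent of the family sum of RPKM (y) for each member of the Fos family (top) and the Jun family (bottom) in the 20 libraries, with mice A to E in each of the 4 groups (x). The Fos share falls from 87.9% in mouse A to 48.3% in mouse E with DMSO Ova, while that of Fosl2 goes from 8.19% to 49.0%.

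Fosl1, the last of the Fos proteins, gave 55 reads over the 20 libraries. Its levels were 0 to 0.256 CPM with DMSO Ova, 0.053 to 0.28 CPM with DMSO IC, 0 to 0.126 CPM with iBET Ova and 0 to 0.334 CPM with iBET IC. All groups overlapped, and in the 4 libraries without a read a count of 0 allows up to 3 reads, or 0.121 to 0.178 CPM, counting error only. A difference between groups was not detectable at this depth. The gene also overlaps Ccdc85b on the opposite strand.

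Members that lie close together in the genome (GRCm38, GENCODE M21) did not always move together. Batf3 (chr1:191097847-191108945, + strand) and Atf3 (chr1:191170296-191218039, - strand) are 61350 bases apart, with Fam71a as the only listed gene between them, which had at most 3 reads in a library, and both fell with iBET. Fos (chr12:85473890-85477273, + strand) and Batf (chr12:85686669-85709087, + strand) are 209395 bases apart with Jdp2 between them, a bZIP repressor that pairs with Jun proteins. There Batf fell with iBET, Jdp2 rose by 0.62 with Ova (SE 0.126, adjusted p = 0.000348) and 0.50 with IC (SE 0.126, adjusted p = 0.0022), and Fos rose only with the mouse in the fit. Jun (chr4:95049034-95052222, - strand) is a gene of 1 exon overlapped by the antisense gene Junos, and Jund (chr8:70698949-70700616, + strand) by Gm11175, neither of them listed in the table, so their reads cannot be told apart from those of the members unless the counting used strand.

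The other bZIP genes, 41 tested of 44 listed, include possible partners of the members. With iBET 14 rose and 12 fell with Ova, and 13 rose and 12 fell with IC, with medians of 0.06 and 0.07. These totals are near the 56.6% and 56.1% called among all genes. Creb5, which can pair with Jun, fell 6.43-fold with Ova, from 62.96 ± 9.43 to 9.78 ± 1.06 CPM (SD, n = 5, adjusted p = 2.27e-12), and Cebpd, a C/EBP protein induced in inflammation, rose 2.62-fold, from 20.6 ± 3.94 to 53.9 ± 8.71 CPM (adjusted p = 9.07e-09). With IC, Cebpe, a granulocyte factor, fell 6.48-fold to 0.764 ± 0.31 CPM (adjusted p = 6.75e-08) and Mafk, a small Maf protein, rose 2.17-fold to 55.2 ± 4.68 CPM (adjusted p = 4.59e-10). Between IC and Ova 5 rose and 2 fell with DMSO and 4 rose and 3 fell with iBET, where 20.3% and 11.8% of all genes were called. With the block 12 and 14 passed (38.1% and 28.9% of all genes), and in mice A and B alone 4 and 3 (502 and 295 of 12465 genes). In both of these contrasts Maff, another small Maf protein, had the largest rise, of 2.35-fold (adjusted p = 0.00145) and 2.05-fold (adjusted p = 0.0101), and Nfe2, known from platelet formation, the largest fall, of 1.90-fold (adjusted p = 1.56e-05) and 2.12-fold (adjusted p = 8.99e-06).

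The MAP kinases phosphorylate Jun, Atf2 and the factors that switch on Fos. Of 19 tested genes of the cascade 12 rose and 3 fell with iBET and Ova, and 13 rose and 3 fell with iBET and IC. Of all genes 27.7% rose and 28.9% fell with Ova, and 27.1% rose and 29.0% fell with IC. The medians were 0.22 and 0.41 against 0.00 and -0.01 over all genes. Mapk8, which encodes the Jun kinase JNK1, rose 2.01-fold with Ova, from 11.4 ± 0.518 to 22.9 ± 2.37 CPM (adjusted p = 1.8e-09). Map3k8, a kinase upstream of ERK, fell 1.69-fold there (adjusted p = 3.74e-07) but rose with IC, 1.21-fold with DMSO (adjusted p = 0.0262) and 1.60-fold with iBET (adjusted p = 4.11e-05). With iBET and IC Map2k6 rose 2.01-fold, to 1.28 ± 0.141 CPM (adjusted p = 8.89e-05), and Map3k1 fell by 0.44 on the log2 scale, to 148.9 ± 27.6 CPM (adjusted p = 0.0347). IC against Ova moved 4 genes with either drug arm, 1 up and 3 down (20.3% of all genes with DMSO and 11.8% with iBET). With the block it moved 8 in each (38.1% and 28.9% of all genes). Map2k6 fell 4.08-fold with DMSO, to 0.637 CPM (adjusted p = 2.24e-07), and Map3k5 1.77-fold with iBET (adjusted p = 0.00203). Map2k6 was among the 5 genes past the interaction, with an iBET effect of 1.01 under IC against -0.40 under Ova (difference 1.41, adjusted p = 0.03158).

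Serum response factor and its partners bind the CArG box, which lies farther from the Fos start than the window above. Of 13 listed symbols, some of them older and newer names of the same genes, 11 were in the table and were tested. With iBET 4 rose and 4 fell in either arm, where 56.6% (Ova) and 56.1% (IC) of all genes were called. Without mouse C or D 5 passed with IC. Elk3, a repressor that sits on serum response elements, had the largest fall in both, 3.98-fold with Ova, from 46.4 ± 2.14 to 11.7 ± 1.24 CPM (adjusted p = 1.46e-13), and 3.71-fold with IC (adjusted p = 3.18e-13). Elk1, its activating relative, rose 1.75-fold with Ova (adjusted p = 1.26e-08). Rps6ka5, a kinase of histone H3, rose 1.61-fold with iBET and IC (adjusted p = 4.03e-05) and fell 1.31-fold with IC and DMSO (adjusted p = 0.0225). Rps6ka2 rose 3.49-fold with IC and DMSO, from 39.2 ± 5.09 to 137 ± 15.1 CPM (adjusted p = 9.28e-10), and 1.89-fold with IC and iBET (adjusted p = 2.8e-06), and Rps6ka1 fell 1.18-fold in the latter (adjusted p = 0.0228). Rps6ka2 also passed the interaction, iBET giving 0.68 under Ova and -0.20 under IC (difference -0.89, adjusted p = 0.02892). Between IC and Ova 5 of 11 passed with DMSO (3 without mouse C) and 2 with iBET (1 without mouse A, C, D or E). Among all genes 20.3% and 11.8% did so.

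Of 24 other immediate early genes tested, 11 rose and 3 fell with iBET and Ova, where 27.7% of all genes rose and 28.9% fell. With iBET and IC 12 rose and 3 fell, against 27.1% and 29.0% of all genes, and the medians were 0.33 and 0.43. The total called was near the share of all genes. Ier3, a survival gene, rose 3.82-fold with Ova, from 50.5 ± 9.21 to 192.9 ± 23.9 CPM (adjusted p = 8.27e-10), and 3.96-fold with IC (adjusted p = 5.29e-10). Egr2, an Egr factor of myeloid cells, fell 2.25-fold with Ova, from 90.3 ± 23.7 to 40.1 ± 10.6 CPM (adjusted p = 8.42e-05), and 2.39-fold with IC (adjusted p = 3.84e-05). IC against Ova changed 6 of 24 with DMSO, 3 up and 3 down, and 3 with iBET, 1 up and 2 down. These counts are near the 20.3% and 11.8% called among all genes. Dusp2 rose 2.41-fold with DMSO but only from 0.199 to 0.463 CPM (adjusted p = 0.0298), and Klf4 fell by 0.58 on the log2 scale, from 146.2 ± 11.1 to 97.8 ± 15.9 CPM (adjusted p = 0.00305). With iBET Plk3 rose 1.90-fold (adjusted p = 0.0177) and Klf2 fell 1.44-fold (adjusted p = 0.0237). The block brought these counts to 13 and 10, where it called 38.1% and 28.9% of all genes. Leaving out mouse B or C gave 2 in the first contrast, and leaving out mouse A, D or E gave 1 in the second.

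**Figure D5:**
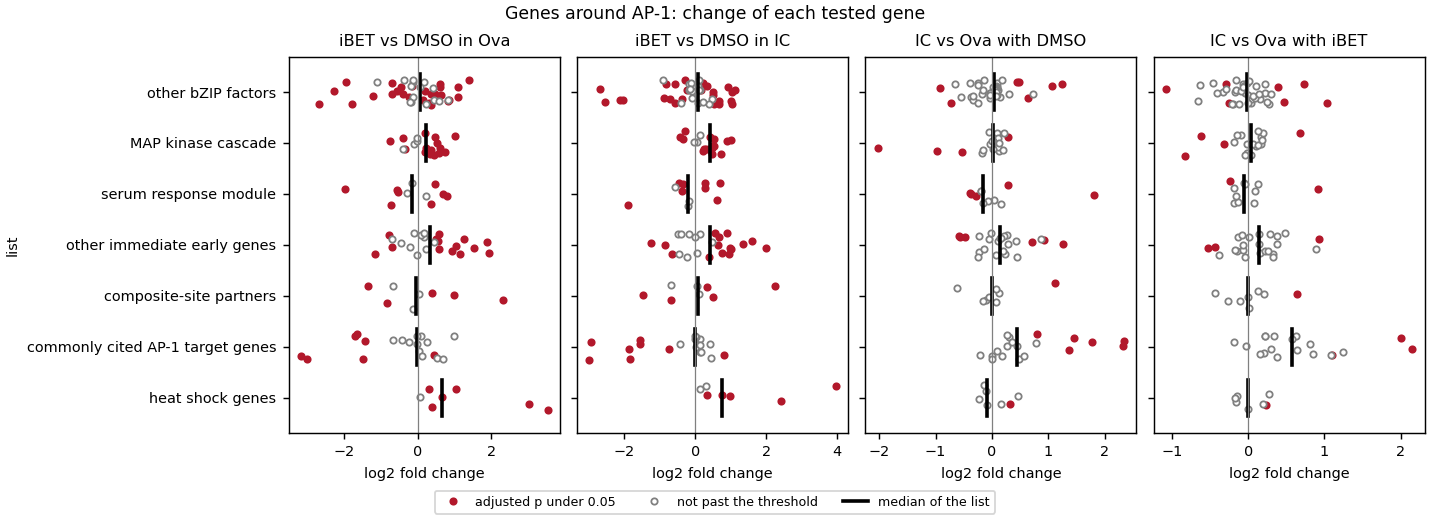
Log2 fold change (x) of every tested gene in 7 lists (y) for the 4 contrasts, red where the adjusted p is under 0.05, with a black bar at the median of the list. The medians of the MAP kinase, immediate early and heat shock lists lie to the right of 0 with iBET, and that of the AP-1 target list lies to the right of 0 with IC.

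The 8 composite-site partners are IRF, NFAT, ETS and RUNX factors that bind DNA next to AP-1 proteins. With iBET 3 rose and 2 fell in either arm, a count near the 56.6% (Ova) and 56.1% (IC) called among all genes. Ets1 rose 4.94-fold with Ova, from 2.72 ± 0.663 to 13.4 ± 2.72 CPM (adjusted p = 3.54e-08), and 4.73-fold with IC (adjusted p = 4.7e-08). Runx1 fell 2.56-fold with Ova, from 151.2 ± 12.7 to 59.2 ± 6.50 CPM (adjusted p = 1.05e-09), and 2.77-fold with IC (adjusted p = 3.43e-10). Between IC and Ova Ets2 alone passed in both arms, where 20.3% (DMSO) and 11.8% (iBET) of all genes were called. It rose 2.16-fold with DMSO (adjusted p = 2.76e-06) and 1.55-fold with iBET (adjusted p = 0.00135). With the block 3 passed with iBET (28.9% of all genes), and without mouse E 2 (1179 of 12465 genes).

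The list of genes often cited as AP-1 targets rose with IC where it moved. Like the other lists it was chosen with earlier results of these data known, so its counts are a description only. Of 19 tested, 6 rose and none fell with IC and DMSO, where 9.59% of all genes rose and 10.7% fell. With IC and iBET 3 rose and none fell, where 5.19% of all genes rose and 6.63% fell. The medians were 0.44 and 0.57. With the block 12 rose in each, where 2284 (DMSO) and 1766 (iBET) of 12465 genes rose. Without mouse E 3 passed in the first. Ptgs2, the inducible cyclooxygenase, had the largest estimate with DMSO (log2 2.34, SE 0.633, adjusted p = 0.0132) but did not go up in all 5 mice. Hmox1, the heme oxygenase, had the largest rise shared by all 5, 4.98-fold with DMSO, from 96.1 ± 23.4 to 478 ± 48.3 CPM (adjusted p = 2.56e-09), and Il1b 4.45-fold with iBET, from 3.73 ± 0.815 to 16.6 ± 4.66 CPM (adjusted p = 0.000238). With iBET 1 rose and 6 fell with Ova, and 1 rose and 7 fell with IC, with medians of -0.04 and 0.01. Of all genes 27.7% rose and 28.9% fell with Ova, and 27.1% rose and 29.0% fell with IC. Il6 fell 9.03-fold with Ova, from 5.03 ± 1.16 to 0.555 ± 0.214 CPM (adjusted p = 5.79e-09), and Hmox1 rose 1.36-fold (adjusted p = 0.00949). With IC Il2ra fell 7.94-fold, from 30.7 ± 19.0 to 4.01 ± 2.79 CPM (adjusted p = 0.000708), and Spp1 rose 1.75-fold (adjusted p = 0.0439). The block called 12 for iBET with Ova (68.7% of all genes), and leaving out mouse B, C or E left 5 for iBET with IC.

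Heat shock genes, induced by protein damage, rose with iBET: 6 of 7 tested with Ova and 5 of 7 with IC, with no falls and medians of 0.66 and 0.74. Of all genes 27.7% and 27.1% rose. Hspa1a rose 11.6-fold with Ova, from 0.867 ± 0.457 to 10.5 ± 8.47 CPM (adjusted p = 8.88e-06), and 15.7-fold with IC (adjusted p = 2.69e-06). Hspa1a and Hspa1b are near-identical copies, so the split of reads between them is uncertain. The 8 genes summed to 1878 to 2197 CPM with DMSO Ova and 2670 to 2964 CPM with iBET Ova, and to 1739 to 2111 and 2464 to 2797 CPM with IC. The sums were higher with iBET in both arms, and those of DMSO Ova and DMSO IC overlapped. The part of these genes in the levels of Jun and Jund was not tested. Between IC and Ova 1 gene passed in each arm, where 20.3% (DMSO) and 11.8% (iBET) of all genes were called. It was Hsp90aa1 with DMSO (1.24-fold, adjusted p = 0.0216) and Hspe1 with iBET (1.18-fold, adjusted p = 0.0394). Without mouse B, C or D none passed in either.

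The gene outside the list whose log2 CPM followed each member most closely was sought among 10599 genes with a mean of at least 50 counts, by Pearson r over the 20 libraries, which share mice and groups. Batf3 was followed by Apobec3 (0.988), Atf3 by Adam8 (0.98) and Batf by Lrfn4 (0.979). Jund was followed by Kctd10 (0.931), Fosb by Pf4 (0.92), Fos by Trf (0.907), Jun by G3bp1 (0.907), Junb by Trappc1 (0.906) and Fosl2 by Tram2 (0.819). These genes were picked by their r over the same libraries, so likeness in the levels of groups or mice follows from that choice. Adam8 averaged 439 and 593.5 CPM with DMSO Ova and DMSO IC and 190.5 and 311 CPM with iBET Ova and iBET IC, the same order of groups as Atf3. Apobec3 averaged 26.9 and 25.4 CPM in mice A and B and 40.9 to 44.9 CPM in mice C, D and E. Pf4 averaged 102 CPM in mouse A and 38.6 CPM in mouse E and Trf 751 and 404 CPM, a narrower range than the 7.13-fold of Fos.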

How the data were processed

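RNA of BMDC cultures of 5 mice in 4 groups was sequenced from SMARTer pico libraries. The authors deposited raw read counts per gene for 20 libraries, made per the labels with CASAVA, Trim Galore, FastQC, HISAT2, mm10 and featureCounts. Versions and the strand setting are not given in the sources used here. A table of normalized values in the same deposit was not used.

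Of 24421 genes, 6187 had no count. After filterByExpr, 12465 genes went into edgeR 4.0.16 for its quasi-likelihood test (R 4.3.3, TMM scaling, 4 group means fitted over all 20 libraries), with Benjamini-Hochberg adjustment over all of them and a threshold of 0.05. The code was tested on simulated data. CPM used the TMM-scaled totals. RPKM used exon lengths of GENCODE M21, in which 23376 symbols matched directly, 670 through older symbols and 375 not at all. Total counts of 16447491 to 29245150 set the counting error only.

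The labels give the mouse of each library. Deviations from the group means correlated within a mouse (30 pairs of libraries, mean r 0.524, lowest 0.307, highest 0.675). Between mice (120 pairs) the mean was -0.127, with a lowest r of -0.576 and a highest of 0.557. Taking deviations from group means makes that mean negative by itself, so it does not show that mice were independent. Because libraries of a mouse deviated together, the fit with the mouse as a replicate block is given where it changes a call. All 40 pairs of replicates differed beyond sampling noise (at least 12.5 chi-square per degree of freedom).

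All members were named, and in each list the gene with the largest rise and the one with the largest fall of each contrast, among those called and moved the same way in 5 of 5 mice. Members and lists were chosen with earlier results of these data known. Alternatives were DESeq2 1.42.0, its size factors, library size only, no filter, 3 surrogate variables from sva 3.50.0, each mouse left out, mice A and B only, and mice C, D and E only.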

Additional observations from a re-analysis of the deposited data

Results flagged for a closer look

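Batf in the DMSO Ova library of mouse A, at 16.6 CPM, stood apart from the other 4 libraries of its group, of which the nearest was at 13.45 CPM. The gap took 0.774 of the range of the group. It was 1 of 36 groups of 5 libraries examined, and chance alone marks about 1 in 20 such groups.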

How the results depend on the processing

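Of the log2 changes of members recomputed under 14 alternatives, 546 kept their direction and their side of the threshold, 26 gained a call, 18 lost one and 40 changed sign. The falls of Atf3, Batf and Batf3 with iBET kept both under every alternative. With the mouse as a replicate block 8 members were called for iBET with IC and 4 for IC with iBET, by edgeR and by DESeq2, and beyond the calls given above the pairing by mouse changed none. Library size only gave 3 for iBET with IC, surrogate variables and mice C, D and E each gave 2 for IC with iBET, and mice A and B gave 0 for IC with DMSO. Leaving out a mouse gave 3 to 5 for iBET with IC (3 without mouse C) and 1 to 3 for IC with DMSO (1 without mouse E).

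Over all genes, IC with DMSO called 4755 with the replicate block, 4611 with DESeq2 and the block, 502 in mice A and B, and 1209 to 2476 without a mouse (1209 without mouse C, 1415 without mouse D). IC with iBET called 3601, 3594, 295 and 630 to 1179 (920 without mouse B, 630 without mouse C, 681 without mouse D), 2341 with library size only and 2777 with surrogate variables. The interaction called 102 with the block, 25 with DESeq2, 184 with both, 34 with surrogate variables, 0 in mice A and B, 13 in mice C, D and E, and 0 to 2 without a mouse. The cause of these shifts was not tested.

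The changes of sign concerned values past no threshold, save those of Fosl2 with iBET and IC. In mice A and B Fosl2 was 0.061 (iBET with Ova), -0.026 (iBET with IC), -0.17 (IC with iBET) and -0.088 (interaction). There Junb was -0.12 (iBET with Ova) and -0.080 (IC with DMSO), Batf -0.057 (IC with DMSO) and 0.25 (interaction), Fosb 0.10 (IC with DMSO), -0.032 (IC with iBET) and -0.13 (interaction), and Jund 0.38 (interaction). In mice C, D and E Jund was -0.11 and Batf -0.0093 (IC with iBET), and the interactions were -0.10 for Fos, -0.17 for Junb and -0.0056 for Atf3. With library size only IC with iBET was -0.10 for Fosb, -0.0685 for Fosl2, -0.031 for Jund and -0.031 for Batf. With surrogate variables Fosb was 0.0050 (IC with DMSO), -0.0054 (IC with iBET) and -0.010 (interaction), and Fos -0.15 (interaction). With the replicate block the interaction of Fos was -0.014, and -0.011 in DESeq2. Leaving out each mouse in turn, IC with iBET ran from -0.179 to 0.252 for Fosb, -0.0403 to 0.0977 for Fosl2, -0.0598 to 0.180 for Jund and -0.0223 to 0.157 for Batf, and IC with DMSO from -0.142 to 0.0869 for Fosb. The interaction ran from -0.0528 to 0.0605 for Fos, -0.0692 to 0.257 for Fosb, -0.0939 to 0.127 for Junb, -0.246 to 0.0516 for Jund and -0.280 to 0.0129 for Batf.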
